A study of Mus musculus with 10 samples.

Results

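Macrophages and monocytes in the leukemic mouse spleen were followed through 10 identity genes chosen by symbol. The genes are Csf1r, Adgre1, Cd68, Lyz2, C1qa, C1qb, C1qc, Mrc1, Cd14 and Vcam1, and all 10 were found among the 20813 genes of the table. The study profiled RNA from 10 C57BL/6 spleens holding a transplanted T-ALL (acute lymphoblastic leukemia of the T lineage, a malignancy of developing thymocytes). The transplanted leukemias carried a conditional Sirt1 allele, and they were injected into a vein of recipients given a sublethal dose of radiation. By the genotype label 5 spleens were Sirt1 deleted, with titles beginning TMX, and 5 were control, with titles beginning VEH. The treatment protocol gives tamoxifen at 3 mg per mouse in corn oil, or corn oil alone, so drug and genotype cannot be told apart. The ages of the mice and the recombinase that acts on the allele are not given in the sources used here. The labels place the conditional allele in the leukemias, whereas macrophages of the recipient belong to the host, and spleen cells were analysed unsorted after red blood cell lysis.

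Macrophages are phagocytes that settle in tissues and clear dying cells, and monocytes are their circulating relatives. In the spleen, red pulp macrophages remove aged red blood cells and recycle their iron, while macrophages of the marginal zone sample particles from the blood. Survival of most of these cells depends on the CSF1 receptor, and the transcription factor PU.1, encoded by Spi1, controls much of their gene expression. The 10 genes were divided into a resident macrophage group (C1qa, C1qb, C1qc, Mrc1, Vcam1 and Adgre1) and a general myeloid group (Csf1r, Cd68, Lyz2 and Cd14).

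The Sirt1 level did not fall with the label. Sirt1 was 1735 to 1909 normalized counts in controls and 1715 to 2097 in the other group (log2 difference 0.05, SE 0.06, limma adjusted p = 0.568). Whether the deposited gene value includes the deleted part of the gene is not known, so the samples are named by their label, as labelled Sirt1-deleted. Totals of the normalized counts were 33.7 to 34.5 M per sample (M, mega). T cell markers were abundant in all 10 samples, with summed levels of 81736 to 92536. In bulk tissue, fewer cells of a type and less RNA per cell cannot be told apart. The labels do not say that samples of a group came from separate mice, so p-values measure the spread between these samples.

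The 3 C1q genes lie side by side in 18675 bases of chromosome 4 (GRCm38), all on the minus strand. C1qb spans chr4:136880129-136886187, C1qc chr4:136889804-136893065 and C1qa chr4:136895917-136898803. The gap is 3616 bases between C1qb and C1qc and 2851 bases between C1qc and C1qa. Mrc1 spans chr2:14229392-14332057 and Vcam1 chr3:116109949-116129688. Adgre1 spans chr17:57358691-57483527. Cd68 spans chr11:69664213-69666153, and Lyz2 spans chr10:117277331-117282321.

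Because most of the members moved together, the sequences before their starts are shown for the 5 members whose promoters RefSeq (GRCm38.p6) supplied. Each run is read 5′ to 3′ on the gene's strand from 250 bases before the RefSeq start, and it stops at that start (C1qb and Cd68) or at the start of the GENCODE M21 gene where this comes first (C1qc, Mrc1 and Lyz2). Capitals mark GAGGAA, a core of the sites bound by PU.1, or its reverse complement.
C1qb, chr4:136886201-136886450, minus strand: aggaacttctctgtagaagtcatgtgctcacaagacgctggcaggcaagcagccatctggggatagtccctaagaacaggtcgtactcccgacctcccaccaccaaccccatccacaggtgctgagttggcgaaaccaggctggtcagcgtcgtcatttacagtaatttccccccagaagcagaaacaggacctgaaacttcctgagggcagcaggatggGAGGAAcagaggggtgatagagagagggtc
C1qc, chr4:136893066-136893164, minus strand: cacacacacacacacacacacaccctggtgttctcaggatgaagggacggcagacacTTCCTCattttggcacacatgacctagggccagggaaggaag
Mrc1, chr2:14229164-14229391, plus strand: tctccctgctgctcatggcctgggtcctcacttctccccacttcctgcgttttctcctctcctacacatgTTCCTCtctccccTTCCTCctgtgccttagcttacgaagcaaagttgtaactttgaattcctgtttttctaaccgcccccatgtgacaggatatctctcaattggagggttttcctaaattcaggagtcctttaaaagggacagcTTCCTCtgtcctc
Cd68, chr11:69666171-69666420, minus strand: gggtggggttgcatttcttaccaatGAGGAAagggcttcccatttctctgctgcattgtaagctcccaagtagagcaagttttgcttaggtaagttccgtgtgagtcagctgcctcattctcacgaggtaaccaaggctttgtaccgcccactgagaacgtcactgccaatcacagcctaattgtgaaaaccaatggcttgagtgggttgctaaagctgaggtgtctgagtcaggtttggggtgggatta
Lyz2, chr10:117282322-117282522, minus strand: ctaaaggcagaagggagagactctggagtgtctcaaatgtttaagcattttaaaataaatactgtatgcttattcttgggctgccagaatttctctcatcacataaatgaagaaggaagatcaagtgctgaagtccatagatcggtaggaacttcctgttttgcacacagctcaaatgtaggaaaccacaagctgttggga

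GAGGAA, searched on both strands of the 250 bases before the start, was found in 4 of these 5 windows and in 23.3% of the 32851 windows of the RefSeq table. In C1qb it began 30 bases before the start. Mrc1 held it 3 times, each on the opposite strand. C1qc held it once, also on the opposite strand, beginning 193 bases before the start. Cd68 held it once on its own strand, beginning 225 bases before. Lyz2 had no match to these letters. The interferon-stimulated response element was in 0 of the 5 windows and in 2.98% of all windows. A kappa-B motif was also in 0 of 5 windows (0.98% of all), as was a MAF half-site, TGCTGAC (3.81% of all). Cd68 had the AP-1 letters TGANTCA at a pair of positions and a C/EBP match, TTGCNNAA, and no other of these 5 windows held either. Those letters were found in 6.75% and 9.56% of all windows. Letter matches describe the sequence and do not show binding.

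Differences were tested with limma on log2(normalized count + 1) over the 15276 genes with a mean of at least 10, which included all 10 members. Adjusted p-values are Benjamini-Hochberg values over those genes. Of the 10 members, 8 rose in the labelled Sirt1-deleted samples and 0 fell (limma adjusted p under 0.05). At an unadjusted p under 0.05 the counts were the same, and an exact rank-sum test called 7 as higher and 0 as lower. Among all tested genes 16.8% rose, 19.4% fell and 36.1% changed in either direction. The median log2 difference was 0.83 over the members and -0.00014 over all tested genes. Values of the groups did not overlap for 7 of the 10 members, all higher in the labelled Sirt1-deleted samples, against 11.1% of all tested genes in that direction and 24% in either. The 2 members that did not pass were Adgre1 and Cd14. Gene by gene, the exact permutation p (two-sided, 252 arrangements) was 0.00794, the smallest this design can give, for each of the 7 members without overlap. After adjustment the rank-sum test called the 3659 genes without overlap and no others. The overlap count, the rank-sum calls and these smallest exact p-values are therefore not separate checks. The exact p was 0.0238 for Csf1r, 0.143 for Adgre1 and 0.444 for Cd14. Labelled Sirt1-deleted replicates 10 and 11 were the lowest of their group for C1qa and Mrc1. Without them, an alternative added after the values were seen, the count was 8. Leaving them out can only raise the group's means of C1qa and Mrc1, so this count is not a separate check.

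**Figure D1:**
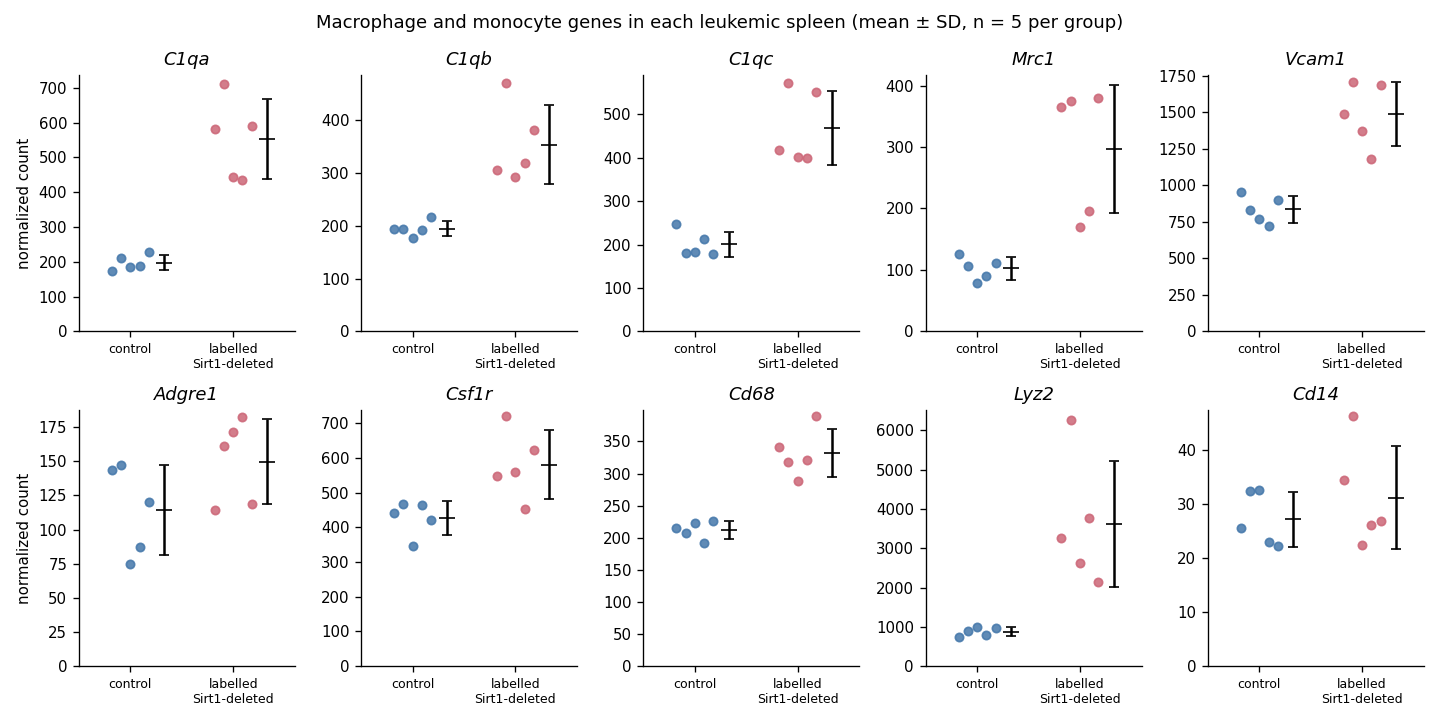
Normalized counts of the 10 genes (vertical axes from 0, a scale for each gene) in 5 control and 5 labelled Sirt1-deleted spleens; points are spleens, and bars are mean ± SD. The points of the groups overlap for Adgre1, Csf1r and Cd14 and are apart for the other 7 genes.

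C1qa, C1qb and C1qc encode the A, B and C chains that assemble into C1q, the recognition molecule of the classical complement pathway. Tissue macrophages are the main producers of C1q, which also tags dying cells for uptake. All 3 genes rose, with C1qa 2.79-fold, C1qc 2.34-fold and C1qb 1.82-fold higher on the mean of the normalized counts.

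In control replicates 2, 3, 4, 5 and 6, C1qa was 175, 211, 186, 189 and 228 normalized counts. In labelled Sirt1-deleted replicates 7, 8, 10, 11 and 12, C1qa was 581, 711, 443, 434 and 591. The lowest labelled Sirt1-deleted value lay well above the highest control, and replicates 10 and 11 were the lowest of their group. The mean of C1qa was 552 ± 115 against 198 ± 21.5 (SD, n = 5 each), a log2 difference of 1.46 (SE 0.14, limma adjusted p = 7.48e-05).

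In the same order of replicates, C1qb was 194, 194, 176, 191 and 216 in controls. It was 305, 471, 292, 319 and 381 in the labelled Sirt1-deleted samples. The groups were again apart, and replicate 8 was the highest as it was for C1qa. The log2 difference of C1qb was 0.84 (SE 0.13, limma adjusted p = 8.97e-04).

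For C1qc the control values were 247, 180, 184, 213 and 178. The labelled Sirt1-deleted values were 418, 571, 402, 400 and 551. The groups did not overlap, and replicates 8 and 12 formed the upper pair. The log2 difference of C1qc was 1.22 (SE 0.13, limma adjusted p = 1.77e-04).

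The chains were also compared with each other. C1qa over C1qb, a ratio within each spleen that does not depend on scaling, was 0.901 to 1.09 in controls and 1.36 to 1.91 in the labelled Sirt1-deleted samples. Its mean was 1.02 ± 0.0750 and 1.57 ± 0.202 (SD, n = 5 each), with no overlap. The ratio of C1qc over C1qb was 1.04 ± 0.173 and 1.33 ± 0.0957, and its ranges overlapped. C1qa over C1qc was 1.01 ± 0.227 and 1.18 ± 0.137, also overlapping. These ratios are described without a test, as are all ratios and class means of the members given here.

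Mrc1 and Vcam1 are surface proteins of resident macrophages, and both rose. Mrc1 encodes the mannose receptor CD206, an endocytic lectin. Vcam1 encodes the adhesion molecule VCAM1, which splenic macrophages, endothelium and stroma display to integrin-bearing cells.

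Mrc1 was 126, 107, 79.3, 90.1 and 110 normalized counts in control replicates 2 to 6. It was 365, 374, 170, 195 and 379 in labelled Sirt1-deleted replicates 7, 8, 10, 11 and 12. The labelled Sirt1-deleted samples fell into an upper set of 3 and a lower pair, replicates 10 and 11, which still exceeded every control. The log2 difference was 1.46 (SE 0.24, limma adjusted p = 0.00119). Without replicates 10 and 11, an alternative added after the values were seen, Mrc1 differed by 1.87 (limma adjusted p = 1.75e-05). A larger difference was fixed in advance there, because the lowest values of the group were left out.

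Vcam1 was 951, 834, 766, 722 and 902 in controls. In the labelled Sirt1-deleted samples it was 1490, 1704, 1372, 1183 and 1688. The groups were apart, with a log2 difference of 0.83 (SE 0.11, limma adjusted p = 4.22e-04) and a 1.78-fold higher mean. An antisense gene, Gm43109, overlaps the start of Vcam1 in the annotation, and the sources used here do not say whether counting used strand.

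Beside Vcam1, no tested endothelial or stromal marker rose in the main fit. Of 12 listed, 6 were tested, 0 rose and 1 fell in limma. The number that rose was 0 at an unadjusted p under 0.05 and in the rank-sum test as well, but 1 rose when labelled Sirt1-deleted replicates 10 and 11 were left out. Their summed level was 5103 to 6090 in controls and 4563 to 5085 in the labelled Sirt1-deleted samples. Most of that sum came from Pecam1 and Pdgfrb, and Pdgfrb, the 1 that fell, went from 2170 ± 365 to 1460 ± 469 (limma adjusted p = 0.0215). Kdr, an endothelial gene that was tested, was near the filter at 14.8 ± 2.36 in controls. Whether an endothelial or stromal source of Vcam1 changed was not tested. The endothelial cadherin gene Cdh5, too low to be tested, was 7.96 to 20.2 in controls and 0.984 to 7.53 in the labelled Sirt1-deleted samples. Pecam1, which is also expressed by leukocytes, was 3252 ± 70.8 and 3192 ± 497 (SD, n = 5 each; limma adjusted p = 0.754), and it passed when those replicates were left out.

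Adgre1 encodes F4/80, the classical surface marker of mouse red pulp macrophages. Its control values were 143, 147, 74.7, 86.9 and 120 normalized counts. Its labelled Sirt1-deleted values were 115, 161, 172, 182 and 119. The groups overlapped, and here replicates 10 and 11 were the highest of their group, the reverse of their place for C1qa and Mrc1. The log2 difference of 0.41 had a 95% interval of -0.05 to 0.87 (limma adjusted p = 0.150), an interval that includes both no change and the size seen for Vcam1.

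Csf1r encodes the receptor for CSF1 and IL-34, the cytokines that maintain macrophages and monocytes. Control values were 441, 468, 347, 464 and 420 normalized counts. Labelled Sirt1-deleted values were 549, 720, 558, 452 and 624. Replicate 11 lay inside the control range and the other 4 lay above it. The mean was 581 ± 99.1 against 428 ± 49.2 (SD, n = 5 each), a log2 difference of 0.43 (SE 0.12, limma adjusted p = 0.0163). An exact rank-sum test with adjustment over all tested genes did not call Csf1r (adjusted p = 0.0823). Csf1r ends close to Hmgxb3 on the opposite strand, and the gene models overlap.

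Cd68 encodes macrosialin, a glycoprotein of the lysosomes of phagocytes. It was 215, 207, 222, 192 and 227 normalized counts in controls. It was 341, 318, 288, 321 and 390 in the labelled Sirt1-deleted samples, where the spread was small and no value reached the control range. The log2 difference of Cd68 was 0.63 (SE 0.10, limma adjusted p = 8.97e-04).

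Lyz2 encodes lysozyme M, an antibacterial enzyme made by macrophages, monocytes and neutrophils. Control values were 736, 895, 1002, 793 and 973 normalized counts. Labelled Sirt1-deleted values were 3258, 6255, 2619, 3781 and 2133. Every labelled Sirt1-deleted sample exceeded every control, and replicate 8 stood at the top of a wide range. Lyz2 had the highest fold of the 10 members, 4.10-fold on the means, with a log2 difference of 1.94 (SE 0.22, limma adjusted p = 2.27e-04). The coefficient of variation was 13% in controls and 44.5% in the labelled Sirt1-deleted samples. The close paralog Lyz1 could share reads, but it was at most 4.30 normalized counts in any sample.

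Cd14 encodes a co-receptor for bacterial lipopolysaccharide on monocytes and macrophages. It was low, at 25.6, 32.5, 32.6, 22.9 and 22.1 normalized counts in controls. It was 34.3, 46.2, 22.4, 26.1 and 26.8 in the labelled Sirt1-deleted samples. Only replicates 7 and 8 exceeded the control range. The log2 difference of 0.17 had a 95% interval of -0.35 to 0.68 (limma adjusted p = 0.616), and its sign turned under quantile normalization (-0.12).

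**Figure D2:**
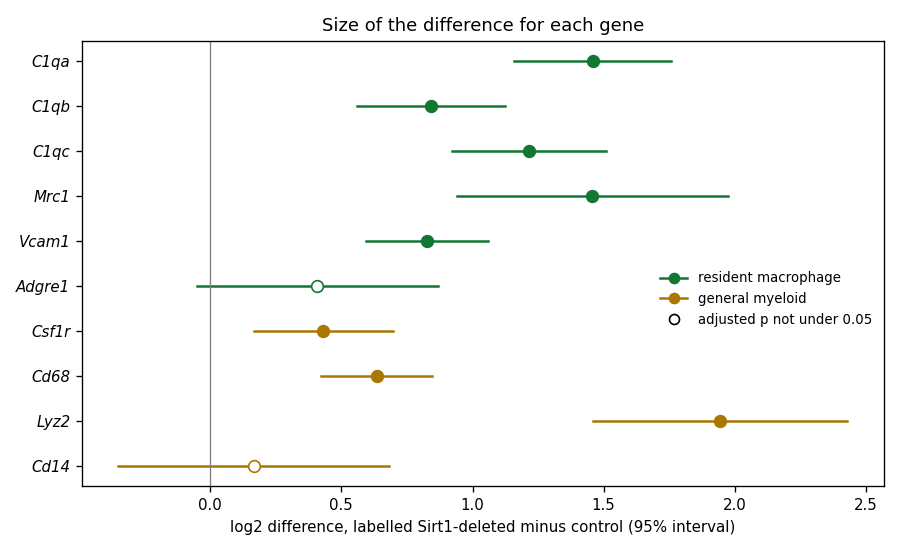
Log2 differences (horizontal axis, labelled Sirt1-deleted minus control, on the log2(value + 1) scale) for the 10 genes, with 95% intervals; green marks the resident macrophage group, brown the general myeloid group, and open circles an adjusted p not under 0.05. Lyz2 lies farthest to the right at 1.94, and the intervals of Adgre1 and Cd14 include 0.

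Levels can be set side by side between genes only per transcript length, here the longest protein-coding transcript of GENCODE M21. On that scale Lyz2 was the highest in controls, at 668 ± 86.6 normalized counts per kilobase (SD, n = 5). Vcam1 followed at 241 ± 27.2, and C1qa (190 ± 20.6), C1qb (179 ± 13.2), Cd68 (173 ± 11.3) and C1qc (167 ± 24.6) were within their spread of each other. Csf1r was lower at 91.0 ± 10.5, and Adgre1 was at 35.3 ± 10.1. Mrc1, at 19.1 ± 3.42, and Cd14, at 16.5 ± 3.09, were the lowest and did not differ beyond their spread. In the labelled Sirt1-deleted samples Lyz2 reached 2742 ± 1220 per kilobase, C1qa 531 ± 111, Vcam1 429 ± 63.3 and C1qc 390 ± 70.8. The order of C1qa and Vcam1 had turned, with spreads that met in the labelled Sirt1-deleted samples. Cd14 was again the lowest at 19.0 ± 5.75.

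The resident and general groups were then set side by side. Of the 6 resident macrophage genes 5 rose, with a mean log2 difference of 1.03. Of the 4 general myeloid genes 3 rose, with a mean of 0.79. The general mean was carried by Lyz2, and without it the other 3 genes averaged 0.41. Without the C1q genes the resident mean was 0.90.

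Within each spleen, the mean log2 level of the resident genes minus that of the general genes was 0.15, -0.11, -0.37, -0.11 and 0.02 in control replicates 2 to 6. It was 0.09, 0.03, 0.18, 0.06 and 0.41 in labelled Sirt1-deleted replicates 7, 8, 10, 11 and 12. The groups overlapped, because control replicate 2 lay above replicates 7, 8 and 11. The difference between the group means was 0.24.

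Csf1r gave another yardstick within each spleen. C1qa over Csf1r was 0.396 to 0.543 in controls and 0.794 to 1.06 in the labelled Sirt1-deleted samples. C1qc over Csf1r was 0.385 to 0.560 and 0.721 to 0.885, and Mrc1 over Csf1r was 0.194 to 0.287 and 0.304 to 0.664. C1qb, Vcam1 and Lyz2 relative to Csf1r also did not overlap between the groups. Vcam1 over Csf1r was 1.97 ± 0.287 and 2.57 ± 0.154 (SD, n = 5 each), a smaller shift. Adgre1 over Csf1r differed by less than its spread, 0.266 ± 0.0614 and 0.267 ± 0.0886. Cd68 and Cd14 relative to Csf1r overlapped as well.

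**Figure D3:**
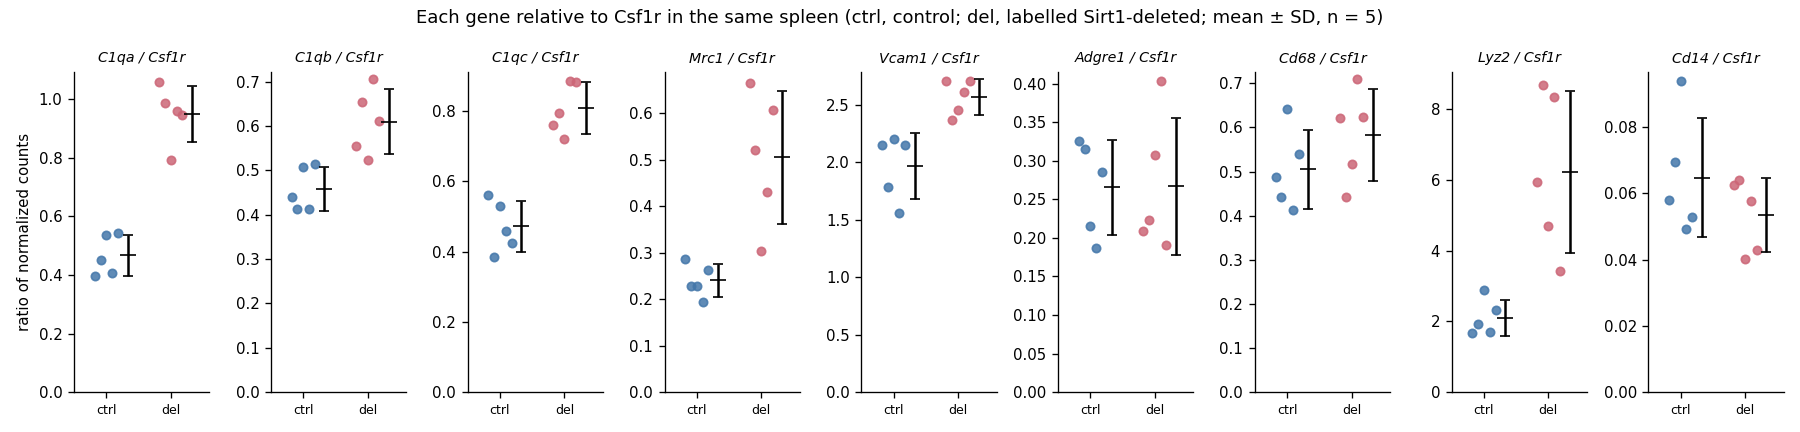
Ratio of each gene to Csf1r in the same spleen (vertical axes from 0; ratio of normalized counts) for 5 control and 5 labelled Sirt1-deleted samples, with mean ± SD. C1qa, C1qb, C1qc, Mrc1, Vcam1 and Lyz2 are apart between the groups, while Adgre1, Cd68 and Cd14 overlap.

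Samples also differed within the groups. After each group's mean was subtracted, Mrc1 and Vcam1 went together over the 10 samples (Pearson r = 0.83), as did C1qa and C1qb (r = 0.80) and C1qa and Mrc1 (r = 0.77). Lyz2 went with Cd14 (r = 0.70) and not with Vcam1 (r = 0.03), C1qc (r = 0.01) or Mrc1 (r = 0.09). Adgre1 lay between r = -0.34 (with Cd68) and r = 0.17 (with Csf1r) against the other members. All values of a sample come from 1 library, and with 10 samples these correlations only describe the data.

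The tested genes most like the mean of the C1q genes by the same measure were Rpl5-ps1 (r = 0.93), Phldb3 (r = 0.92), Irf8 (r = 0.91), Sirpa (r = 0.91) and Tfec (r = 0.91). Of these, Rpl5-ps1, Phldb3 and Irf8 did not pass between the groups (limma adjusted p = 0.763, 0.715 and 0.494). Sirpa, which encodes a phagocyte receptor for CD47, rose from 351 ± 31.8 to 887 ± 194 (SD, n = 5 each; limma adjusted p = 1.06e-04), and Tfec rose by 1.34 (log2; limma adjusted p = 0.0235), from a control mean of 9.95, under the filter. Those most like Csf1r were Rubcnl (r = 0.96), Mpeg1 (r = 0.94), Fam217b (r = 0.91), Derl3 (r = 0.91) and Casz1 (r = 0.90). Mpeg1, which encodes the pore-forming protein perforin-2 of macrophages, rose with a log2 difference of 0.89 (limma adjusted p = 5.68e-04). Fam217b and Derl3 also rose (limma adjusted p = 0.0404 and 0.0367), and Rubcnl and Casz1 did not pass (0.0909 and 0.296). Those most like Lyz2 were Txndc15, Arpc1b, Rimklb, Slc9a3r1 and Pxk, at r = 0.93 to 0.94, and none of them rose in limma, while Txndc15 fell by 0.17 (log2; limma adjusted p = 0.0292). All are the highest of 15266 candidates over 10 samples.

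Of 9 genes of red pulp macrophages, 8 rose and 0 fell in limma, with a median log2 difference of 0.63. For this list and those that follow, the shares over all tested genes are 16.8% rising and 19.4% falling. None was lower at an unadjusted p under 0.05 or in the rank-sum test. Spic, the transcription factor that red pulp macrophages require, was 96.1 to 135 normalized counts in controls and 156 to 343 in the labelled Sirt1-deleted samples (log2 difference 1.01, SE 0.22, limma adjusted p = 0.00452). Hmox1, which degrades heme, rose from 387 ± 37.4 to 573 ± 37.6 (limma adjusted p = 7.66e-04). Slc40a1, which encodes the iron exporter ferroportin, rose from 687 ± 127 to 986 ± 97.3 (limma adjusted p = 0.00489). Itgad, an integrin subunit of red pulp macrophages, rose by a log2 difference of 1.12, with ranges that overlapped and no call in the rank-sum test. The hemoglobin scavenger receptor gene Cd163 was 63.9 ± 16.7 and 96.0 ± 24.2 and fell just short of the threshold (limma adjusted p = 0.0505), and 9 of 21 alternatives called it, those without control replicate 2 or 4 or labelled Sirt1-deleted replicate 10, 11 or 12 among them.

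Of 7 genes of marginal zone and dead-cell-clearing macrophages, 6 were tested, 4 rose and 1 fell. Siglec1, which encodes the sialic acid receptor CD169 and is also induced by interferon, rose from 18.3 ± 4.83 to 60.9 ± 10.7, a log2 difference of 1.70 (limma adjusted p = 4.32e-04). Timd4, a phosphatidylserine receptor, was 9.93 ± 4.76 and 28.3 ± 11.4 (log2 difference 1.47, limma adjusted p = 0.00886). The control mean of Timd4 is under the filter's 10, so it was tested only through its labelled Sirt1-deleted values. Marco, the scavenger receptor of marginal zone macrophages, was 70.6 ± 8.74 and 104 ± 50.6 and did not pass (limma adjusted p = 0.204), except when labelled Sirt1-deleted replicates 10 and 11 were left out. Mfge8, which encodes a bridge between dying cells and phagocytes, fell from 1742 ± 113 to 1394 ± 165 (limma adjusted p = 0.00873), a call that the rank-sum test did not make.

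Classical monocyte genes rose in 5 of 6 cases, with a median log2 difference of 1.15. Ly6c2, a surface antigen of inflammatory monocytes, was 88.8 to 152 in controls and 318 to 1002 in the labelled Sirt1-deleted samples (log2 difference 1.97, limma adjusted p = 5.78e-04). Ccr2, the chemokine receptor that lets monocytes leave the bone marrow, rose from 68.3 ± 13.5 to 143 ± 51.5 (limma adjusted p = 0.00559). The matrix gene Fn1 differed by 1.49 (limma adjusted p = 0.0144) and was not called by the rank-sum test. Its highest value, 268, was in labelled Sirt1-deleted replicate 10, the lowest of that group for Ly6c2 (318) and Ccr2 (94.1). F13a1, the gene of the list that did not pass, was lower in the labelled Sirt1-deleted samples, at 261 ± 37.8 and 213 ± 69.1 (limma adjusted p = 0.185).

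Genes listed for non-classical monocytes were mixed, with 1 of 6 rising and 3 falling, against 16.8% and 19.4% of all tested genes. Cx3cr1, the fractalkine receptor, rose from 24.3 ± 2.83 to 48.9 ± 10.7, a log2 difference of 0.95 (limma adjusted p = 0.00439). Nr4a1 fell from 2560 ± 331 to 1575 ± 140 (limma adjusted p = 3.87e-04), and Eno3 fell from 2969 ± 290 to 2099 ± 126 (limma adjusted p = 6.35e-04). Nr4a1 is also induced by antigen receptor signals in T cells, and Eno3 is a glycolytic enzyme gene, so neither is restricted to monocytes. Ace, the other gene of the list that fell, went from 826 ± 63.7 to 613 ± 140 (limma adjusted p = 0.0192), with ranges that overlapped.

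All 10 tested pan-myeloid genes rose, with a median log2 difference of 1.54. Aif1, which encodes the actin-binding protein IBA1, rose from 39.9 ± 5.64 to 136 ± 41.6 (limma adjusted p = 3.88e-04). Cybb, the catalytic subunit of the phagocyte NADPH oxidase, rose from 338 ± 14.2 to 1148 ± 484 (limma adjusted p = 2.34e-04). Itgam, the CD11b integrin of monocytes, macrophages and neutrophils, rose from 300.2 ± 28.9 to 844 ± 409, a log2 difference of 1.36 (limma adjusted p = 0.00236).

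**Figure D4:**
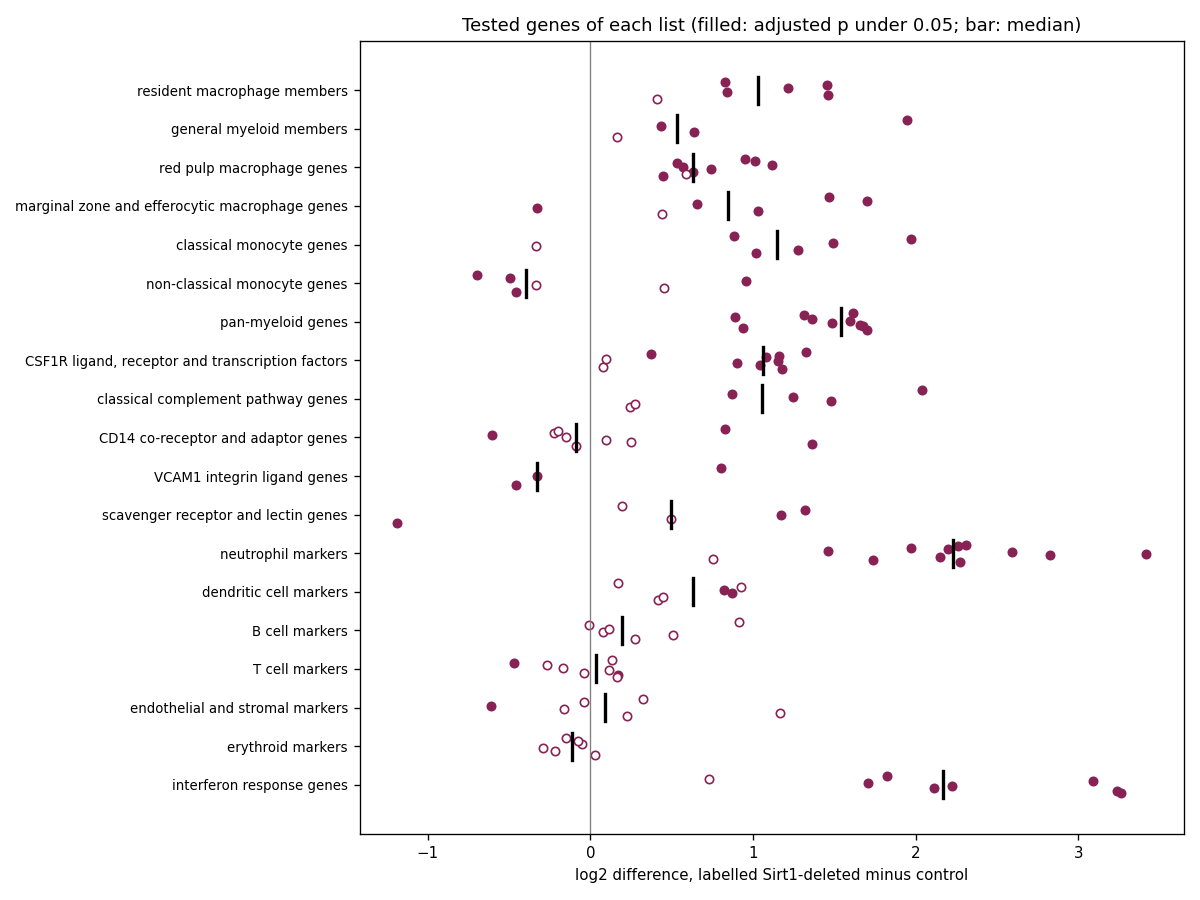
Log2 differences (horizontal axis, labelled Sirt1-deleted minus control) of the tested genes of each list (1 row per list); filled points have an adjusted p under 0.05, open points do not, and the bar is the list's median. The medians of neutrophil markers (2.23) and interferon response genes (2.17) lie farther to the right than those of the resident (1.03) and general (0.53) members.

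Among the ligands, growth factor receptors and transcription factors around CSF1R, 8 of 10 tested genes rose and 0 fell in limma. None was lower at an unadjusted p under 0.05 or in the rank-sum test. Csf1, the ligand, was low at 10.9 ± 2.27 and rose to 24.3 ± 9.16 normalized counts (log2 difference 1.04, limma adjusted p = 0.0146). The call was lost under quantile normalization. Spi1 rose from 143 ± 16.3 to 381 ± 147, a log2 difference of 1.33 (limma adjusted p = 0.00145), and Cebpa, a factor of early myeloid cells, rose by 1.18 but was not called by the rank-sum test. Il34, the other ligand, has no row in the table.

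Of 11 classical complement genes other than C1q, 6 were tested, 4 rose and 0 fell in limma, and 0 were lower at an unadjusted p under 0.05 or in the rank-sum test. C3ar1, among those that rose, had a control mean of 6.71, under the filter, so it was tested only through its labelled Sirt1-deleted values. C3, the central complement component, rose from 258 ± 51.8 to 824 ± 496 (limma adjusted p = 0.00603). C5ar1, the receptor for the C5a fragment, rose from 24.6 ± 6.36 to 114 ± 61.2, a log2 difference of 2.04 (limma adjusted p = 8.23e-04). The proteases that act with C1q were low: C1ra, the only one tested, was 22.6 ± 6.10 and 29.2 ± 17.1 (limma adjusted p = 0.599).

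Genes that act with CD14 were mixed. Of 9, 2 rose and 1 fell, where 16.8% of all tested genes rose and 19.4% fell. The median log2 difference of the list was -0.09. Tlr4, the signalling receptor for lipopolysaccharide, was 22.4 ± 8.48 and 39.2 ± 9.17 (limma adjusted p = 0.0343), and 8 of 20 alternatives lost this call, the rank-sum test and those without control replicate 3, 4 or 5 or labelled Sirt1-deleted replicate 8 or 11 among them. Lbp, which carries lipopolysaccharide to CD14, rose from 35.5 ± 4.75 to 101 ± 55.7 (limma adjusted p = 0.00324). Ticam2, an adaptor of TLR4, fell from 513 ± 32.9 to 339 ± 46.6 (limma adjusted p = 0.00119).

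Of 3 integrin genes for VCAM1 binding, 2 fell and 1 rose in limma, and the rank-sum test called Itgb1 alone. Itga4, the alpha-4 subunit, fell from 2449 ± 440 to 1773 ± 209 (log2 difference -0.45, limma adjusted p = 0.00961), and its partner Itgb1 fell from 10422 ± 407 to 8322 ± 902 (limma adjusted p = 0.00331). The alternative partner Itgb7 rose from 1773 ± 345 to 3232 ± 1133 (limma adjusted p = 0.0173). Of 5 scavenger receptor and lectin genes tested, 2 rose and 1 fell. The rises include Msr1, whose control mean of 7.71 is under the filter, so it was tested only through its labelled Sirt1-deleted values. The beta-glucan receptor gene Clec7a rose by 1.17 (limma adjusted p = 0.0185), a call lost under quantile normalization and in the rank-sum test. The fatty acid scavenger receptor gene Cd36 fell by 1.19 (log2; limma adjusted p = 0.0262) and Msr1 rose by 1.32 (limma adjusted p = 0.0416), and both calls were lost in the rank-sum test and others, 8 of 21 alternatives for Cd36 and 11 of 20 for Msr1. For Cd36 they included the fits without control replicate 2, 5 or 6 or labelled Sirt1-deleted replicate 7, 8 or 12. For Msr1 they included those without control replicate 2, 3 or 5 or any 1 labelled Sirt1-deleted sample.

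Other cells and programs moved with the members. Neutrophil markers, of which 11 of 12 rose, summed to 9007 to 12453 in controls and 28521 to 97946 in the labelled Sirt1-deleted samples, with none at 0. S100a9, which had the highest mean normalized count of the list over all 10 samples, rose from 2355 ± 331 to 12808 ± 6617 (SD, n = 5 each; limma adjusted p = 2.27e-04). Ly6g, the neutrophil surface marker, was 6.87 to 30.8 in controls and 132 to 346 in the labelled Sirt1-deleted samples. Within the groups, the mean of the neutrophil markers went with Cd14 (r = 0.88), C1qa (r = 0.84), Lyz2 (r = 0.73), C1qb (r = 0.69) and Mrc1 (r = 0.68), and less with Vcam1 (r = 0.48), Csf1r (r = 0.42), C1qc (r = 0.37) and Cd68 (r = 0.30). With Adgre1 it was r = -0.20. Interferon response genes rose in 7 of 8 cases, with summed levels of 2069 to 4389 and 7276 to 14645. Rsad2, with the highest mean normalized count of the list over all 10 samples, was the 1 that did not pass, at 1705 ± 732 and 2794 ± 1261 (limma adjusted p = 0.155). Oas2, named after its values were seen, rose from 349 ± 119 to 3011 ± 1001 (limma adjusted p = 8.47e-05). Their within-group correlation with the members was between -0.33 and 0.49. The part of neutrophils and interferon in the members' differences was not tested.

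Markers of the other cells of the spleen moved less. Of dendritic cell markers 2 of 6 rose (summed 205 to 272 in controls and 257 to 466 in the labelled Sirt1-deleted samples). Of 6 B cell markers 0 changed in limma or the rank-sum test, and 2 were higher at an unadjusted p under 0.05 (summed 17816 to 20932 and 18993 to 26544). Without labelled Sirt1-deleted replicates 10 and 11, 2 B cell markers rose in limma. Of 6 erythroid markers 0 changed in limma, in the rank-sum test or at an unadjusted p under 0.05 (summed 18399 to 69485 and 17702 to 84877). Of 8 T cell markers 1 rose and 1 fell, with summed levels of 81736 to 90030 and 89885 to 92536, and without those replicates 3 rose and 2 fell. None of these lists had a gene listed at 0 in every sample. The genes with the highest mean normalized count over all 10 samples in these lists did not pass in limma. They were the dendritic cell factor Zbtb46 (109 ± 13.4 in controls and 124 ± 29.1), the immunoglobulin gene Ighm (19266 ± 1347 and 20921 ± 2886), the T cell kinase gene Lck (28587 ± 1338 and 31393 ± 2158) and the hemoglobin gene Hbb-bs (26726 ± 11451 and 27044 ± 16119; SD, n = 5 each). Lck passed in 4 of 21 alternatives, those without labelled Sirt1-deleted replicate 10 among them.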

How the data were processed

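RNA from 10 leukemic spleens was sequenced as strand-specific Illumina libraries, per the labels' protocols. The deposited values are a normalized signal: the file name calls them DESeq-normalized counts, so they are gene counts after division by size factors and not raw counts. The submitters' processing notes name kallisto 0.44.0, DESeq and mm10, with no role or order. The gene annotation, and whether genes were filtered, are not given in the sources used here. Read depth is unknown, so no counting intervals are given.

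Values were analysed as log2(value + 1) for genes with a mean of at least 10 (15276 of 20813). Folds are understated for low genes on that scale. The mean runs over both groups, so a gene low in controls can enter through its labelled Sirt1-deleted values. Timd4, Msr1, Tfec and C3ar1, a complement gene that rose, entered so with control means under 10. Cdh5, lower in the labelled Sirt1-deleted samples, was left out. Calls for such low genes therefore lean toward rises. Group was the only term in limma 3.58.1 (R 4.3.3; empirical Bayes with an intensity trend), with Benjamini-Hochberg adjustment at 0.05. The fit was tested on simulated data. Samples were grouped by the genotype label and numbered by their titles. The members, gene lists and naming rule were chosen with earlier results of these data known. The genes named are the members, the 2 largest called rises and falls of each related list, a fixed set of markers, the gene of highest mean normalized count over all samples in each other list, and the 5 genes most correlated within groups with C1q, Csf1r and Lyz2. Ace, C3ar1, F13a1, Kdr and Pdgfrb, like Oas2, were named outside that rule after their values were seen. Gene positions and lengths came from GENCODE M21 and promoters from RefSeq, both GRCm38.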

Additional observations from a re-analysis of the deposited data

Results flagged for a closer look

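None of the 10 members had a sample that stood apart from its group by the ratio of the gap to the group's range (critical value 0.71 for 5 samples). Over 134 sets of 5 samples, which include the members and the other genes picked by the naming rule, 10 exceeded it, where chance at 1 in 20 gives 6.7. Control replicate 2 was low for Ly6c2 (88.8 normalized counts; the next was 138) and Ccr2 (45.4; next 71.2) and high for C5ar1 (35.8; next 23.7). Control replicate 4 was high for Csf1 (14.9; next 10.2) and low for Rubcnl (10.5; next 19.5). Control replicate 5 was high for Cx3cr1 (29.2; next 24.4), and control replicate 6 was low for Mfge8 (1542; next 1759). Labelled Sirt1-deleted replicate 8 was high for Cybb (1987; next 1115), Lbp (198; next 95.5) and Tfec (71.0; next 26.9).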

How the results depend on the processing

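No paired analysis was possible because no number in the titles occurs in both groups. The number of members that rose was 8 under every alternative run except the exact rank-sum test, which gave 7 without Csf1r. All 10 fits that left out 1 sample gave 8. The fit without labelled Sirt1-deleted replicates 10 and 11 also gave 8, but those samples were picked after their values were seen. The rank-sum test lowered the number of changed genes from 5518 to 3659, with 1691 higher (2562 in limma) and 1968 lower (2956 in limma). Among the lists it called fewer rises: 6 red pulp genes in place of 8, 3 marginal zone genes in place of 4, 2 classical monocyte genes in place of 5, 9 pan-myeloid genes in place of 10, 5 CSF1R-related genes in place of 8, 3 complement genes in place of 4, 1 CD14-related gene in place of 2, 0 integrin genes in place of 1, 0 scavenger receptor genes in place of 2, 10 neutrophil markers in place of 11 and 0 dendritic cell markers in place of 2. It called fewer falls for the marginal zone (0 for 1), non-classical monocyte (2 for 3), integrin (1 for 2), scavenger receptor (0 for 1) and endothelial (0 for 1) lists. Without replicates 10 and 11, which removes samples from 1 group only, 9 red pulp genes rose in place of 8, 5 marginal zone genes in place of 4, 4 classical monocyte genes in place of 5, 2 non-classical genes in place of 1, 3 dendritic cell markers in place of 2, and 1 gene in place of 2 in each of the CD14 and scavenger receptor lists. Upper-quartile rescaling made 58.2% of changed genes higher, against 46.4% as deposited, and moved the median log2 difference of all genes to 0.06. Cd14 turned to -0.115 under quantile normalization. The gap between resident and general members was from 0.169 to 0.298 when 1 sample was left out. It was not computed at a minimum mean of 50, which Cd14 does not reach. The causes were not tested.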
